A study of Mus musculus with 24 samples.

Results

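Autophagy and lysosome genes were followed in mouse primary hepatocytes that received insulin or glucagon. The set holds 46 genes listed by symbol for their known place in the pathway, chosen with earlier results of these data known. Of these, 44 had a probe set of their own on the array and were measured, among 22180 genes tested in all. Optn had no probe set with its symbol alone and is not analysed here, and Bnip3l lay on a probe set shared with its pseudogene Bnip3l-ps. Where a gene had several probe sets, the brightest on average was taken. In these cells 19 of the 44 genes differed between the hormones: 13 rose and 6 fell under glucagon. Of all genes tested 16.2% differed, and of those at a comparable level (a group mean of 4 or more) 34.1%. Ulk1, the kinase that starts autophagosome formation, rose 2.69-fold. The FXR agonist GW4064 and the hairpin against FOXA2 moved 0 of the 44 past the threshold, beside 0.00902% of all genes for each. With so few calls among all genes, the 0 is no result particular to this set. A second fit, described below, called 1 of the 44 with the hairpin.

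The cells were hepatocytes of male C57Bl6J mice, infected with an adenovirus at a multiplicity of infection of 5 and measured on Affymetrix MoGene 2.0 ST arrays. The virus expressed a short hairpin RNA against FOXA2 (shFOXA2) or against lacZ (shlacZ), a bacterial gene that served as control. Each was combined with 1 nM insulin or 100 nM glucagon for 4 h, together with either 2 µM GW4064 or its solvent DMSO, which gives 8 groups of 3 arrays. The series concerned the bile acid receptor FXR, its dependence on PKA and FOXA2, and gluconeogenesis in fasting.

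The shared features of all groups limit what a comparison can show. Every culture carried a virus and was kept in 100 nM dexamethasone, a glucocorticoid. No group lacked a hormone, so higher under glucagon and lower under insulin cannot be told apart, and the doses of the hormones differed. The 3 arrays of a group were experiments 1 to 3, each made from cells pooled from 3 mice. P-values of the main fit thus measured the spread between experiments within groups. That fit took arrays of the same experiment in different groups as independent, so arrays outnumber the 3 experiments. A second fit, with the experiment as a block, took differences in level between experiments out of the spread. The age of the mice is not given in the sources used here. RNA was taken from whole cultures, so fewer cells of a type and less RNA per cell cannot be told apart.

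Autophagy encloses parts of the cytoplasm in a double membrane, the autophagosome, and delivers them to the lysosome for breakdown. A kinase complex around ULK1 starts the process, a lipid kinase complex around Beclin 1 marks the growing membrane, and ubiquitin-like proteins of the ATG8 family are attached to it and bind the receptors that bring cargo. In liver the pathway supplies amino acids, lipids and glucose precursors during fasting, and the transcription factors CREB, in the fasted state, and FXR, in the fed state, are known to act in opposite ways on its genes.

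The promoters of the genes that moved are shown first, because CREB, FXR and the TFEB family are known through short DNA elements. Windows of 300 bases, from 250 before to 50 after a transcription start, were taken from the RefSeq promoter table on build GRCm38.p6. It held 47 windows of 39 listed genes, 38 of them measured, and 18 of the 19 that moved with hormone. Both strands were searched for the cAMP response element TGACGTCA, its shorter core TGACG, the E-box CACGTG, the lysosomal E-box TCACGTGA and the FXR inverted repeat. TGACGTCA also holds TGACG, and TCACGTGA also holds CACGTG. The first 5 windows below belong to the hormone-responsive genes of largest difference that hold TGACGTCA, TGACG or TCACGTGA. The window of Mcoln1, the lysosomal calcium channel, was added after its values were seen. Each runs 5′ to 3′ along the gene, and capitals mark TGACG in Nbr1, Atg13, Vmp1 and Ulk2, TGACGTCA in Atg16l2 and TCACGTGA in Mcoln1, with the same elements in capitals as CGTCA where they lie on the other strand.
Nbr1 (chr11:101551857-101552156, plus strand): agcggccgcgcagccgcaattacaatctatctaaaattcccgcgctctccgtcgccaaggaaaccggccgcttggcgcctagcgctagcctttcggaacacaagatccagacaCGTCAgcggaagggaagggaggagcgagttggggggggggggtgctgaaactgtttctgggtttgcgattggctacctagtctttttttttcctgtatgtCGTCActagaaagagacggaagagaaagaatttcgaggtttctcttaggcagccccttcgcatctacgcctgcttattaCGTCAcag
Atg13 (chr2:91710543-91710842, minus strand): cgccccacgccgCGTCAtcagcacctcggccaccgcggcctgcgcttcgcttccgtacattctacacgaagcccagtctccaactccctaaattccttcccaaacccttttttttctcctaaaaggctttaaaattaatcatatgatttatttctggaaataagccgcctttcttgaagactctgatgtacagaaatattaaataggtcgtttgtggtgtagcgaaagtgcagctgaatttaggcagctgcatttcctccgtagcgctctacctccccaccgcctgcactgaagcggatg
Vmp1 (chr11:86683787-86684086, minus strand): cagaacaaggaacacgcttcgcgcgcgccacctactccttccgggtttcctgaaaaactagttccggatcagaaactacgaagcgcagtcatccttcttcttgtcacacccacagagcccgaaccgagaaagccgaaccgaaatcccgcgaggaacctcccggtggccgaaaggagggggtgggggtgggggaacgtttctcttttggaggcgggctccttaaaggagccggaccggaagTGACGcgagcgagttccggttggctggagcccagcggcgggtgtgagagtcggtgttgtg
Ulk2 (chr11:61855043-61855342, minus strand): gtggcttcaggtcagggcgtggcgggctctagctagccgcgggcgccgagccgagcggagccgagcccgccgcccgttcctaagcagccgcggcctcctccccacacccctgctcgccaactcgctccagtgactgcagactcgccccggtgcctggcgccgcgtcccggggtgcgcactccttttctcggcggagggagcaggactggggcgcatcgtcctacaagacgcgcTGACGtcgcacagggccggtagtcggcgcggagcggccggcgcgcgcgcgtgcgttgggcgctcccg
Atg16l2 (chr7:101302039-101302338, minus strand): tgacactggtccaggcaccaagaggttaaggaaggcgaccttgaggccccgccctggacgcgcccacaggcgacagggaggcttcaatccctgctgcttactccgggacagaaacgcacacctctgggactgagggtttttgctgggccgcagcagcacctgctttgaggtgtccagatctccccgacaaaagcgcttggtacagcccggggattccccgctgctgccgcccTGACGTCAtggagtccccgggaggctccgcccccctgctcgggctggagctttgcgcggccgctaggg
Mcoln1 (chr8:3500269-3500568, plus strand): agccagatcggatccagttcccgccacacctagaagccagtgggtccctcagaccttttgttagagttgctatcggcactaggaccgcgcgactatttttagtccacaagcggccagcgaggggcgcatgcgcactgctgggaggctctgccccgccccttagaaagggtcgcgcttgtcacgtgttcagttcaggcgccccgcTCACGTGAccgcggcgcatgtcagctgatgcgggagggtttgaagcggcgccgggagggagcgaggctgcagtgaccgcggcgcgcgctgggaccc

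TGACG lay 137 and 37 bases before the start and 42 bases after it in Nbr1, and 238 bases before it in Atg13. In Ulk2 it began 17 and in Vmp1 10 bases before the start. The full TGACGTCA of Atg16l2 began 18 bases before the start, and the TCACGTGA of Mcoln1 46 bases before it. The genes shown include some that rose under glucagon (Nbr1, Atg13, Ulk2, Mcoln1) and some that fell (Vmp1, Atg16l2). Of the 18 hormone-responsive genes with a window, 7 held TGACGTCA, TGACG or TCACGTGA. Measured genes that did not pass held them too: Atg10, Atg2b, Atg3, Atg5, Gabarapl2, Map1lc3b, Sesn1 and Tecpr1. The share of all windows that hold any of these motifs was not computed, so the count is no result about hormone response. The window of Ulk1, the gene that rose most, held none of the motifs searched.

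The shares over all promoters differed by motif. TGACG was in 27.7% of the 47 windows and in 20.8% of all 32851 windows in the table, and TGACGTCA in 4.26% against 1.79%. The E-box CACGTG was in 19.1% against 7.15%, and its lysosomal form TCACGTGA in 6.38%, the windows of Atg3, Ctsd and Mcoln1, against 0.974%. The FXR inverted repeat was in 0 of the 47 windows and in 0.00913% of all windows. A match says only that the letters are there.

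Values below are log2 expression values as deposited, a difference is glucagon minus insulin averaged over the 4 combinations of hairpin and drug, and its SE and adjusted p come from limma with Benjamini-Hochberg adjustment over all 22180 genes. The threshold was 0.05. The 13 genes that rose stand beside 7.38% of all genes, the 6 that fell beside 8.85%, and the 19 together beside 16.2%. All but Tfeb of the 44 had a group mean of 4 or more. Among the 9466 genes at that level the background was 34.1% called, 14.9% higher and 19.3% lower. The median difference was 0.13 over the 44 genes and 0.0051 over all genes tested.

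The experiment numbers paired the arrays. With the experiment as a block, 24 of the 44 rose and 8 fell, against 12.0% and 12.6% of all genes, and none of the 19 calls was lost. Both directions together were 72.7% of the 44, beside 50.8% of genes with a group mean of 4 or more. The 13 genes that this fit added are named below with their blocked p. With 1 averaged difference per experiment, 23 of the 44 passed and 17 of these were among the 19, so most of the 13 did not pass there. Of all 22180 genes, 3603 passed in that fit. The 19 had 1 sign in all 3 experiments, and 12 of them had it in 12 of 12 pairs of arrays that differed only in hormone. These 19 were called from the same arrays, so their shared sign is no separate support for the calls. Its share among all called genes was not counted.

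**Figure D1:**
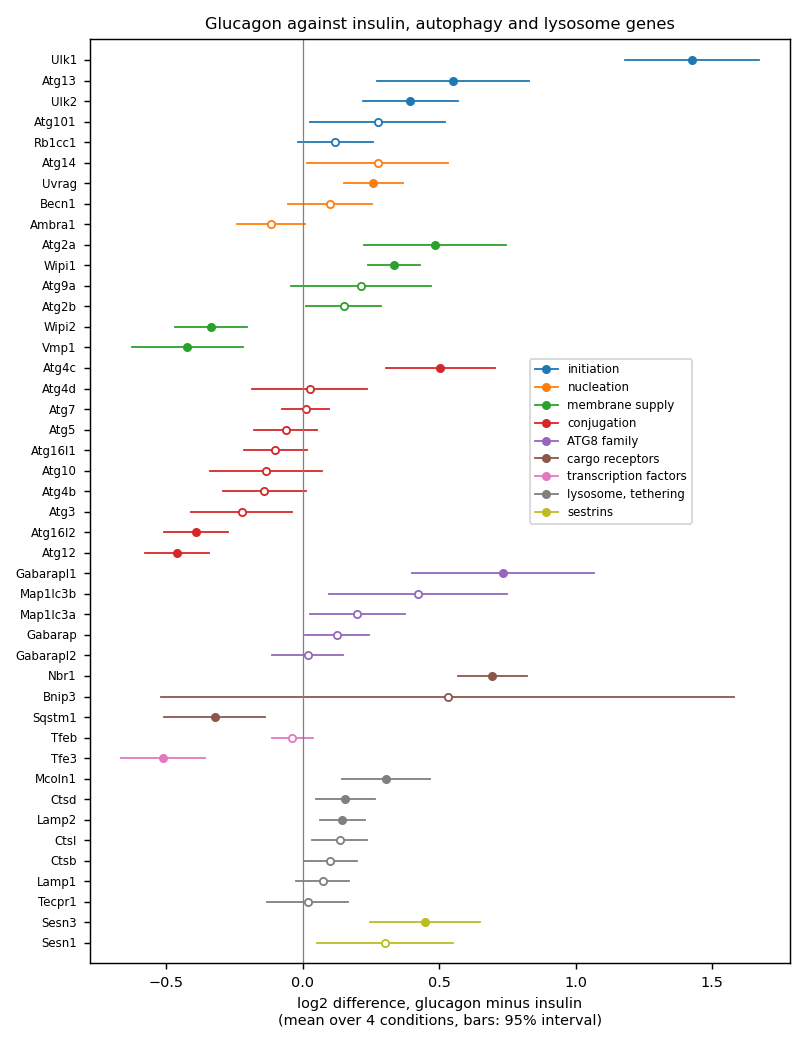
Difference between glucagon and insulin (log2, averaged over 4 conditions) for the 44 measured genes, ordered by role, with 95% confidence intervals from limma. Filled points passed an adjusted p of 0.05: 13 lie to the right of 0, led by Ulk1 at 1.43, and 6 to the left, with Tfe3 at -0.51 the lowest.

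Among the 5 genes of the initiation complex, 3 rose and 0 fell. Ulk1 ranged from 4.92 to 5.53 (median 5.34) on the 12 insulin arrays and from 6.10 to 7.30 (median 6.79) on the 12 glucagon arrays. Every glucagon array lay above every insulin array, and the difference was 1.43 (SE 0.117, n = 12 and 12, adjusted p = 2.04e-08 by limma). It was 1.69, 1.34 and 1.25 in experiments 1, 2 and 3.

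Ulk2, the related kinase, ranged from 5.89 to 6.49 (median 6.24) under insulin and from 6.03 to 6.95 (median 6.61) under glucagon. The arrays overlapped, and 10 of 12 pairs were higher under glucagon. Its difference was 0.39 (SE 0.0836, 1.31-fold, adjusted p = 0.00178 by limma), but only 0.08 in experiment 3 beside 0.55 in both others. The scaffold subunit Atg13 went from a median of 6.40 (6.09 to 7.09) to one of 7.02 (6.71 to 7.47). Its ranges overlapped too, with 11 of 12 pairs higher, and the difference was 0.55 (SE 0.133, 1.47-fold, adjusted p = 0.00533 by limma). Both calls were lost without experiment 1 (Ulk2 0.129, Atg13 0.22 as adjusted p) and without experiment 2 (0.129 and 0.0648).

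The remaining subunits did not pass. Atg101, which stabilises Atg13, differed by 0.27 (adjusted p = 0.143 by limma, 0.00297 with the block). Rb1cc1, the large scaffold also called FIP200, differed by 0.12, with an adjusted p of 0.282 by limma and 0.23 with the block.

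In the lipid kinase complex, 1 of 4 genes rose. Uvrag, a subunit of the form that acts on maturing autophagosomes and endosomes, ranged from 7.81 to 8.09 (median 7.94) under insulin and from 7.99 to 8.44 (median 8.17) under glucagon. The arrays overlapped slightly and all 12 pairs were higher, with a difference of 0.26 (SE 0.0515, 1.20-fold, adjusted p = 0.000972 by limma). Becn1, the core subunit Beclin 1, differed by 0.10 (adjusted p = 0.481 by limma). Atg14, which directs the complex to autophagosome formation, differed by 0.27 and Ambra1, a Beclin 1 partner, by -0.12, with adjusted p of 0.167 and 0.24 by limma. The blocked fit called both (0.00798 and 0.0176).

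Genes that supply and shape the membrane moved in both directions, with 2 of 6 up and 2 down. Wipi1 and Wipi2 bind the lipid that the kinase complex makes. Wipi1 ranged from 5.37 to 5.70 (median 5.62) under insulin and from 5.77 to 6.07 (median 5.93) under glucagon. Its groups did not overlap, and the difference was 0.33 (SE 0.0453, 1.26-fold, adjusted p = 1.54e-05 by limma). Wipi2, which recruits the ATG16L1 complex, ranged from 8.38 to 8.71 (median 8.53) under insulin and from 7.75 to 8.38 (median 8.21) under glucagon. The ranges met at their edges and 12 of 12 pairs were lower, with a difference of -0.34 (SE 0.063, adjusted p = 0.000522 by limma), a direction opposite to that of Wipi1.

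Vmp1, an endoplasmic reticulum protein needed at the site of autophagosome formation, went from a median of 6.27 (5.83 to 6.58) to one of 5.79 (5.02 to 6.11). The arrays overlapped, 11 of 12 pairs were lower, and the difference was -0.42 (SE 0.0975, adjusted p = 0.00364 by limma). Without experiment 2 its adjusted p was 0.0711. Atg2a, a lipid transfer protein, went from a median of 6.56 (6.22 to 6.84) to one of 7.15 (6.51 to 7.56). Its arrays overlapped with 11 of 12 pairs higher, and it rose by 0.49 (SE 0.124, 1.40-fold, adjusted p = 0.00841 by limma). Its paralog Atg2b differed by 0.15 and Atg9a, the membrane protein of the vesicles that seed autophagosomes, by 0.21. Neither passed, at 0.153 and 0.309, while the blocked fit gave 0.0237 and 0.0289. Atg2a lost its call without experiment 3 (adjusted p = 0.14 by limma).

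Among the 10 genes of the conjugation machinery, which attaches ATG8 proteins to lipid, 1 rose and 2 fell. Atg12, itself a ubiquitin-like protein joined to Atg5, ranged from 6.91 to 7.21 (median 7.08) under insulin and from 6.37 to 6.84 (median 6.62) under glucagon. Every glucagon array lay below every insulin array, with a difference of -0.46 (SE 0.0565, 1.38-fold lower, adjusted p = 4.3e-06 by limma). It fell by 0.55, 0.62 and 0.21 in experiments 1, 2 and 3. Atg16l2, a paralog of the scaffold Atg16l1, ranged from 5.42 to 5.89 (median 5.53) and from 5.0 to 5.40 (median 5.18). These groups did not overlap either, and the difference was -0.39 (SE 0.0556, 1.31-fold lower, adjusted p = 2.62e-05 by limma).

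Atg4c, a protease that trims ATG8 proteins, rose from a median of 5.97 (5.51 to 6.23) to one of 6.44 (6.03 to 6.85). The arrays overlapped, 11 of 12 pairs were higher, and the difference was 0.50 (SE 0.0959, 1.42-fold, adjusted p = 0.000623 by limma). It was 0.76, 0.53 and 0.22 in the 3 experiments, and without experiment 1 the adjusted p was 0.0765.

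The enzymes at the centre of conjugation did not pass. Atg7, the activating enzyme, ranged from 6.96 to 7.27 (median 7.18) under insulin and from 6.99 to 7.27 (median 7.23) under glucagon. The groups overlapped almost fully and differed by 0.01 (SE 0.0418, adjusted p = 0.927 by limma). Its conjugating partners Atg3 and Atg10 differed by -0.22 and -0.13, with adjusted p of 0.105 and 0.468 by limma, and the blocked fit called Atg3 (0.0019). Atg5 differed by -0.06 and the scaffold Atg16l1 by -0.10. The proteases Atg4b and Atg4d differed by -0.14 and 0.03.

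Of the 5 ATG8 family genes, Gabarapl1 alone passed. It ranged from 7.66 to 8.78 (median 8.17) under insulin and from 8.16 to 9.31 (median 9.03) under glucagon. The ranges overlapped, yet 12 of 12 pairs were higher. The difference was 0.73 (SE 0.160, 1.66-fold, adjusted p = 0.00226 by limma), and 1.05, 0.66 and 0.50 in experiments 1, 2 and 3. Without experiment 1 its adjusted p was 0.168.

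Map1lc3b encodes LC3B, the protein most used as an autophagosome marker. It differed by 0.42 and was also higher in 12 of 12 pairs, with an adjusted p of 0.0764 by limma and 8.31e-05 with the block. Map1lc3a (0.20) and Gabarap (0.12) missed the threshold at 0.129 and 0.161, and passed with the block at 0.0011 and 0.0368. A dimmer probe set of Gabarap gave a difference of 0.23 (SE 0.0682). Gabarapl2 differed by 0.02. All 5 differences were above 0, from 0.02 to 0.73.

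The cargo receptors moved apart. Nbr1, which binds ubiquitin-tagged cargo, ranged from 6.89 to 7.44 (median 7.26) under insulin and from 7.73 to 8.08 (median 7.93) under glucagon. Its groups did not overlap, and the difference was 0.69 (SE 0.0603, 1.62-fold, adjusted p = 4.14e-08 by limma), with 0.90, 0.56 and 0.63 in the 3 experiments. Sqstm1, which encodes p62, the receptor of the same kind that autophagy itself degrades, ranged from 11.23 to 11.85 (median 11.51) and from 10.66 to 11.44 (median 11.26). It was lower in 11 of 12 pairs although the arrays overlapped, and the difference was -0.32 (SE 0.0891, 1.25-fold lower, adjusted p = 0.0143 by limma). Without experiment 2 its adjusted p was 0.269.

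Bnip3, a receptor for mitochondria, varied more between experiments than any other of the 44 genes. Its mean was 7.29 and 7.20 in experiments 1 and 2 and 9.53 in experiment 3, with arrays at 6.61 to 7.83, 6.09 to 8.06 and 9.32 to 9.74. The hormone difference was 0.53 (SE 0.503, adjusted p = 0.608 by limma, 0.00241 with the block), with 0.75, 0.68 and 0.16 in the 3 experiments and 11 of 12 pairs higher. Experiment means spanned 2.33 for Bnip3, while the median span was 0.242 over the 44 genes and 0.251 over genes with a group mean of 4 or more. The next largest spans were 0.74 for Map1lc3b and 0.70 for Gabarapl1. On the probe set that Bnip3l shares with Bnip3l-ps, the mean was 9.36 under insulin and 9.82 under glucagon, a difference of 0.46 (SE 0.126) that cannot be assigned to either gene.

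The transcription factors TFEB and TFE3 switch on lysosomal and autophagy genes when they enter the nucleus. Tfe3 ranged from 7.48 to 7.95 (median 7.71) under insulin and from 6.90 to 7.50 (median 7.23) under glucagon. The groups met only at their edges and 12 of 12 pairs were lower. The difference was -0.51 (SE 0.0735, 1.43-fold lower, adjusted p = 3.01e-05 by limma), and -0.56, -0.53 and -0.45 in the 3 experiments. Tfeb lay between 2.70 and 2.97 (median 2.76) under insulin and between 2.69 and 2.90 (median 2.75) under glucagon. That is below the median of all probe sets on the arrays, 3.25, and its difference was -0.04 (adjusted p = 0.606 by limma). The arrays measure transcripts, not where these proteins are in the cell.

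**Figure D2:**
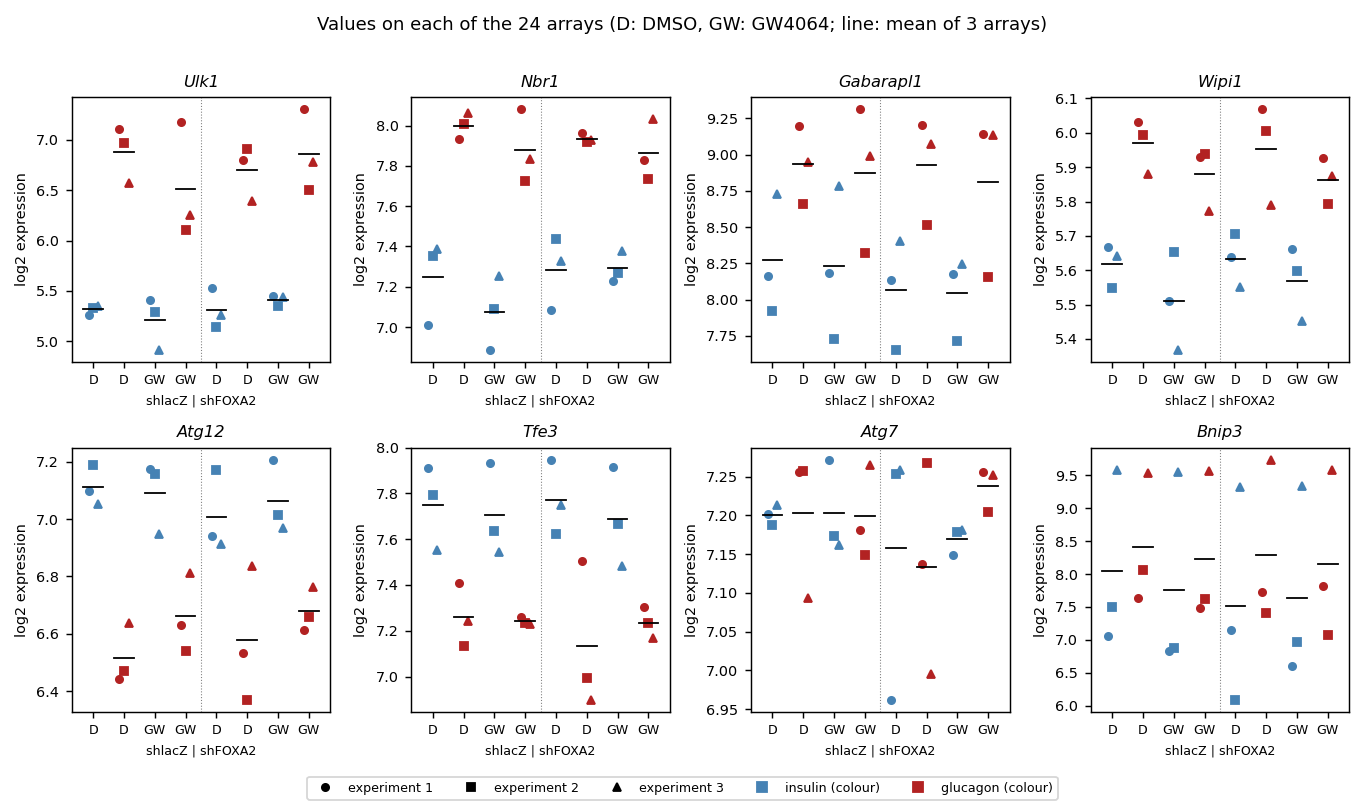
Log2 expression of 8 genes on the 24 arrays, by group, with symbols for the 3 experiments, colours for the hormones, the group mean as a line and an axis of its own in each panel. Ulk1, Nbr1 and Wipi1 are higher on every glucagon array and Atg12 lower, while the arrays of Atg7 mix between 6.96 and 7.27 and Bnip3 separates by experiment, with experiment 3 at 9.32 to 9.74.

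The 7 lysosome genes all had differences above 0, from 0.02 to 0.30, and 3 rose. Mcoln1 ranged from 7.15 to 7.93 (median 7.57) under insulin and from 7.39 to 8.27 (median 7.92) under glucagon. The arrays overlapped, all 12 pairs were higher, and the difference was 0.30 (SE 0.0767, 1.24-fold, adjusted p = 0.00749 by limma). Lamp2, a main protein of the lysosomal membrane, ranged from 9.99 to 10.18 (median 10.10) and from 10.13 to 10.53 (median 10.21). The ranges overlapped and 12 of 12 pairs were higher, by 0.15 (SE 0.0400, 1.11-fold, adjusted p = 0.0141 by limma). Mcoln1 lost its call without experiment 1 (0.0813), and Lamp2 without experiment 1, 2 or 3 (0.134, 0.107 and 0.0943).

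Ctsd, the aspartic protease cathepsin D, ranged from 10.35 to 10.57 (median 10.48) under insulin and from 10.23 to 10.80 (median 10.63) under glucagon. The glucagon arrays reached both lower and higher than the insulin arrays. The difference was 0.16 (SE 0.0516, 1.11-fold, adjusted p = 0.0436 by limma), and the call was lost in 22 of 34 alternative analyses. Among these were the fits without experiment 1 (0.376), without experiment 2 (0.227) and without any of 17 of the 24 arrays (at most 0.087). The cysteine proteases Ctsl (0.14) and Ctsb (0.10) had adjusted p of 0.0646 and 0.173, and 0.0339 and 0.0482 with the block. Lamp1 differed by 0.07, in the same direction in 12 of 12 pairs, without passing (adjusted p = 0.374 by limma). Tecpr1, which helps autophagosomes meet lysosomes, differed by 0.02.

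Sestrins restrain the growth kinase complex mTORC1, which blocks ULK1 when nutrients are plentiful. Sesn3 rose from a median of 6.13 (5.86 to 6.43) to one of 6.69 (6.07 to 6.92). The arrays overlapped but 12 of 12 pairs were higher, with a difference of 0.45 (SE 0.0958, 1.36-fold, adjusted p = 0.00193 by limma), and 0.45, 0.62 and 0.28 by experiment. Without experiment 2 its adjusted p was 0.15. Sesn1 differed by 0.30, again upward in 12 of 12 pairs, with an adjusted p of 0.103 by limma and 0.000908 with the block.

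The groups of 12 arrays did not overlap for 5 of the 44 genes, Ulk1, Wipi1 and Nbr1 above and Atg12 and Atg16l2 below. This was so for 3.07% of all genes and for 7.05% of genes with a group mean of 4 or more. Across 34 alternative analyses, Ulk1, Uvrag, Wipi1, Wipi2, Atg12, Atg16l2, Nbr1 and Tfe3 passed in each. The number called among the 44 was 12 without experiment 1, 14 without experiment 2 and 24 without experiment 3. Of all 22180 genes, 2018, 2216 and 3610 were called in these fits, beside 3600 with all arrays.

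Within each of the 4 combinations of hairpin and drug, 3 glucagon arrays were set against 3 insulin arrays, so fewer genes passed. In shlacZ cells with DMSO, 3 rose and 2 fell, beside 1.71% and 2.98% of all genes. In shlacZ cells with GW4064 the counts were again 3 and 2, beside 1.29% and 1.80%. In shFOXA2 cells with DMSO, 4 rose and 3 fell, beside 2.12% and 2.67%. In shFOXA2 cells with GW4064, 3 rose and 1 fell, beside 1.37% and 2.12%. The blocked fit gave 8 and 4, 8 and 3, 12 and 5, and 9 and 4, in the same order. That was 27.3%, 25%, 38.6% and 29.5% of the 44, beside 11.2%, 8.41%, 11.3% and 9.14% of all genes. Among genes with a group mean of 4 or more, the blocked fit called 23.6%, 18.4%, 24.1% and 19.8%.

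Ulk1 and Nbr1 rose in all 4 combinations. Ulk1 differed by 1.57, 1.30, 1.39 and 1.45 (SE 0.234 each), in the order above, and Nbr1 by 0.75, 0.80, 0.65 and 0.57 (SE 0.121 each). Wipi1, Atg12 and Atg16l2 passed in 3 combinations, all but shFOXA2 with GW4064. Uvrag and Vmp1 passed only in shFOXA2 cells with GW4064 (0.41 and -0.82), and Atg4c and Tfe3 only in shFOXA2 cells with DMSO (0.84 and -0.64). For none of these genes did the difference of the hormone response by drug or by hairpin pass a test of its own. Counts within a combination rested on few arrays: without experiment 1 they were 2, 2, 3 and 1, without experiment 2 they were 2, 2, 0 and 1, and without experiment 3 they were 8, 4, 6 and 6. Without 1 array they ranged from 3 to 4, 2 to 4, 3 to 8 and 2 to 4. The arrays that moved a count by over 1.5 times were all but the glucagon array of experiment 3 in shlacZ DMSO and all of experiments 1 and 2 in shlacZ GW4064. In both shFOXA2 combinations they were the insulin arrays of experiments 1 and 2 and the glucagon array of experiment 3.

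GW4064 minus DMSO, averaged over the 4 combinations of hormone and hairpin, moved 0 of the 44 genes past the threshold, and 0 had an unadjusted p under 0.05 by limma. The background was 0.00902% of all genes, 2 in number. Under insulin alone and under glucagon alone, again 0 of the 44 passed and 0 had an unadjusted p under 0.05, beside 0% of all genes in each. The blocked fit also called 0 of the 44 in all 3 comparisons.

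The 3 genes of smallest unadjusted p were lower with GW4064 in most pairs. Ulk2 ranged from 6.11 to 6.95 (median 6.43) with DMSO and from 5.89 to 6.93 (median 6.28) with GW4064. These groups overlapped almost entirely, and the difference was -0.16 (SE 0.0836, 95% confidence interval -0.34 to 0.01) with 9 of 12 pairs lower. Wipi1 ranged from 5.55 to 6.07 (median 5.75) and from 5.37 to 5.94 (median 5.72), a difference of -0.09 (SE 0.0453, interval -0.18 to 0.01) with 9 of 12 pairs lower. Nbr1 ranged from 7.01 to 8.06 (median 7.68) and from 6.89 to 8.08 (median 7.55), a difference of -0.09 (SE 0.0603, interval -0.21 to 0.04) with 8 of 12 pairs lower. Unadjusted p were 0.0695, 0.0679 and 0.158 by limma, and all adjusted p rounded to 1.00.

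The intervals bound what GW4064 could have done to these transcripts at 4 h. For 43 of the 44 genes, all but Bnip3, the 95% interval of the averaged drug difference lay within 1.5-fold in either direction. The lowest bound among the 43 was -0.41, for Map1lc3b, and the highest 0.27, for Gabarapl1. For Ulk1 the difference was -0.06 (interval -0.30 to 0.19) on average and -0.11 (interval -0.45 to 0.24) under glucagon. Intervals under 1 hormone alone were wider, reaching -0.63 for Map1lc3b under glucagon.

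Of 5 reference genes of FXR, 1 passed with GW4064. Nr0b2, which encodes the repressor SHP, rose by 0.53 with GW4064 (SE 0.0814, adjusted p = 0.0337 by limma) at a low level, with means of 2.90 and 3.42. Its call was lost without experiment 1 and without experiment 2. Abcb11, the bile salt export pump, differed by 0.20 (SE 0.204) and the bile acid exporter subunit Slc51a by -0.06 (SE 0.0424), with adjusted p near 1.00 in limma. The phospholipid exporter Abcb4 differed by 0.24 (SE 0.229) and Nr1h4, which encodes FXR, by -0.21 (SE 0.136), also near 1.00. The hormone reference was large: Pck1, the gluconeogenic enzyme PEPCK, rose by 6.04 (SE 0.295, adjusted p = 8.58e-12 by limma) under glucagon.

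The difference between the hormone responses with GW4064 and with DMSO passed for 0 of the 44 genes, with 0 at an unadjusted p under 0.05 by limma and 0% of all genes called. For 35 of the 44 the interval of this difference lay within 1.5-fold. For Ulk1 it was -0.10 (interval -0.59 to 0.39) and for Nbr1 -0.01 (interval -0.26 to 0.24).

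**Figure D3:**
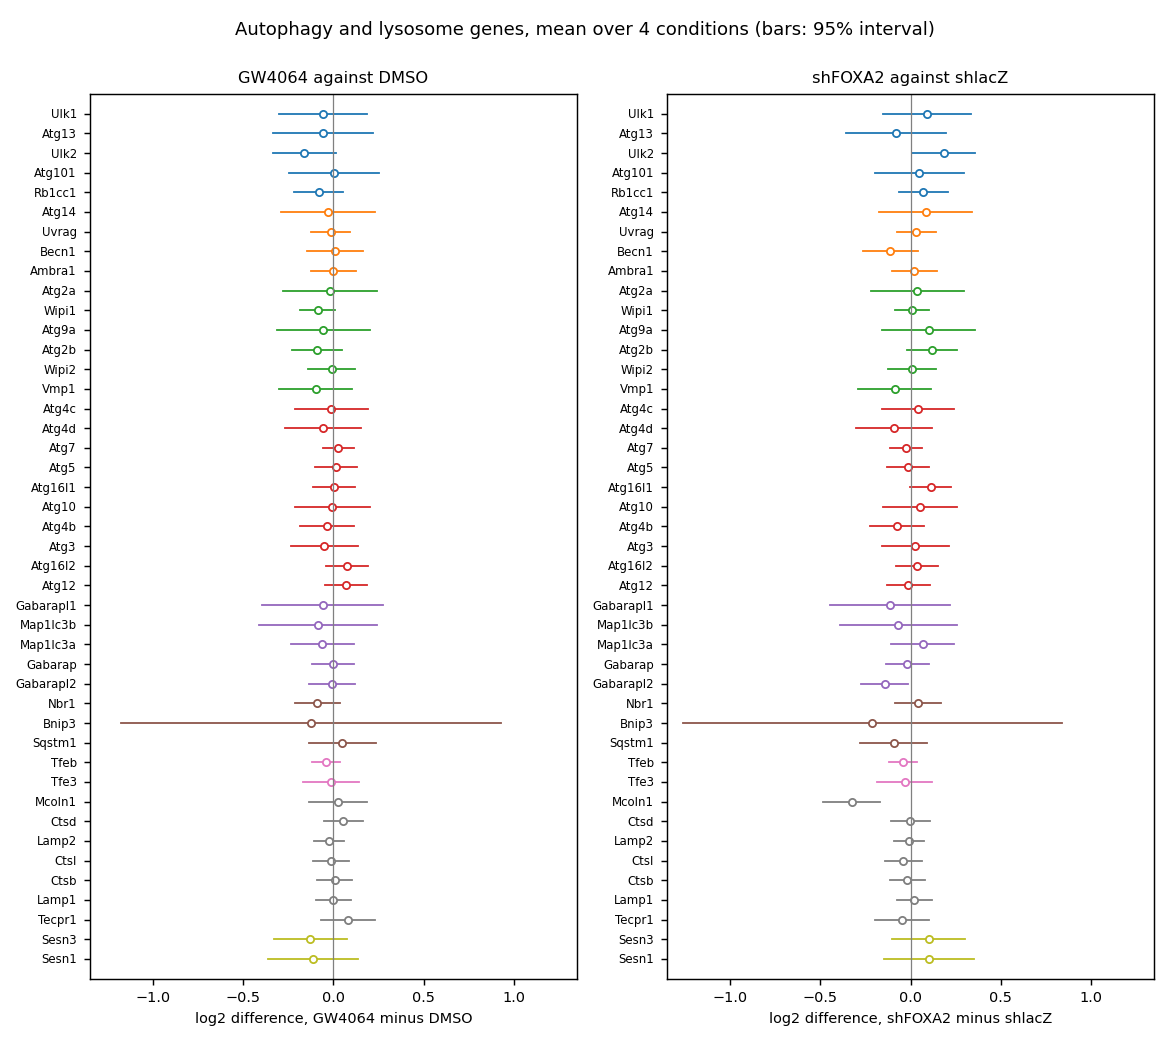
Averaged difference (log2) with GW4064 against DMSO, left, and with shFOXA2 against shlacZ, right, for the 44 genes by role, with 95% confidence intervals from limma. No point passed an adjusted p of 0.05 in either panel, Bnip3 has the widest interval, and Mcoln1 is lowest in the hairpin panel at -0.33.

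The hairpin lowered its target only in part. Foxa2 ranged from 6.07 to 7.72 (median 6.70) in shlacZ arrays and from 5.54 to 7.21 (median 6.44) in shFOXA2 arrays. It was lower in 12 of 12 pairs, by 0.51, 0.66 and 0.12 in experiments 1, 2 and 3. The averaged difference was -0.43 (SE 0.0722, adjusted p = 0.0613 by limma, 0.0194 with the block). Foxa2 itself rose by 1.19 under glucagon.

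With shFOXA2 against shlacZ, 0 of the 44 genes passed by limma and 3 had an unadjusted p under 0.05, beside 0.00902% of all genes called. Under insulin alone and glucagon alone 0 passed, with 1 and 2 at an unadjusted p under 0.05, beside 0.00451% and 0%. The differences between hormone responses by hairpin and between drug responses by hairpin passed for 0 of the 44, with 0 at an unadjusted p under 0.05 in either and 0% of all genes called in each. For Ulk1 the former was -0.02 (interval -0.50 to 0.47).

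Mcoln1 was the gene of the set that moved most with the hairpin, and the 1 that the blocked fit called, beside 0.0766% of all genes. It ranged from 7.51 to 8.27 (median 7.93) in shlacZ arrays and from 7.15 to 7.98 (median 7.57) in shFOXA2 arrays. The groups overlapped, but shFOXA2 was lower in 12 of 12 pairs, by -0.50 to -0.09 on the log2 scale. The averaged difference was -0.33 (SE 0.0767, interval -0.49 to -0.17), with an unadjusted p of 0.000402, an adjusted p of 0.563 by limma and 0.00768 with the block. With 1 averaged difference per experiment it did not pass either, but 0 of all 22180 genes passed there. The difference of Mcoln1 was -0.40, -0.39 and -0.18 in experiments 1, 2 and 3, and -0.33 under insulin and -0.32 under glucagon.

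**Figure D4:**
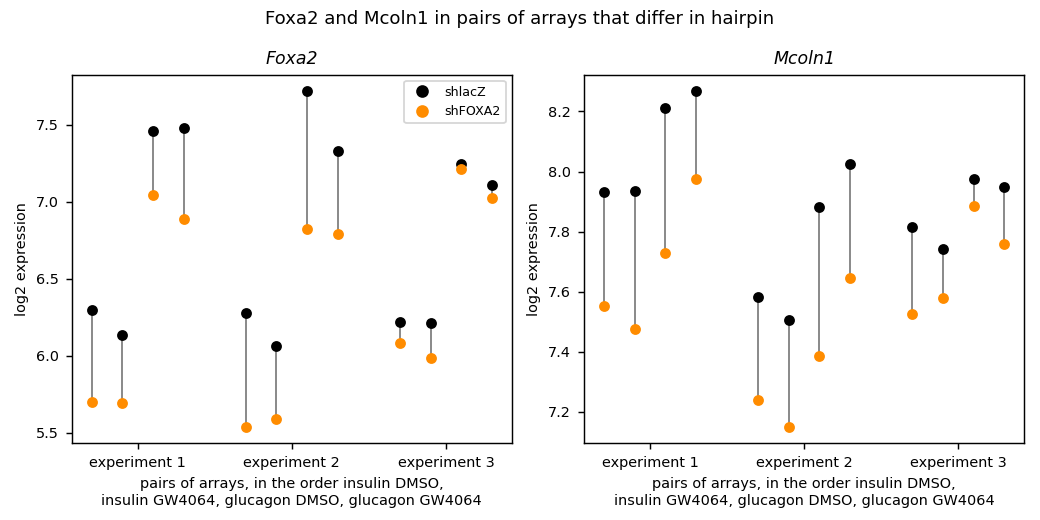
Log2 expression of Foxa2 and Mcoln1 in the 12 pairs of arrays that share hormone, drug and experiment, with lines joining shlacZ to shFOXA2. The shFOXA2 point lies below the shlacZ point in each of the 12 pairs for both genes, and the lines of experiment 3 are shortest on average, with mean differences of -0.12 for Foxa2 and -0.18 for Mcoln1.

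The other 2 were not called by either fit. Gabarapl2 ranged from 7.72 to 8.19 (median 7.91) in shlacZ arrays and from 7.57 to 7.95 (median 7.81) in shFOXA2 arrays. The groups overlapped widely, and the difference was -0.14 (unadjusted p = 0.034, adjusted p = 0.757 by limma), with -0.01, -0.10 and -0.32 by experiment. Ulk2 ranged from 5.89 to 6.76 (median 6.26) and from 6.09 to 6.95 (median 6.38), a difference of 0.18 (unadjusted p = 0.0399, adjusted p = 0.771 by limma). It was higher in 9 of 12 pairs.

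Further genes of the pathway were taken from 5 lists of textbook members, also chosen with earlier results of these data known. Their counts stand beside 16.2% of all genes called, or 34.1% of those with a group mean of 4 or more. Of 32 other genes of the autophagy machinery, 10 rose and 8 fell under glucagon, with a median difference of 0.07. Trp53inp1, which binds ATG8 proteins, rose by 1.21 (SE 0.0405, means 9.91 and 11.12). Stbd1, a receptor for glycogen, fell by 1.17 (SE 0.0510, log2 difference -1.17, means 8.39 and 7.22). Retreg1, a receptor for endoplasmic reticulum, rose by 0.96 (SE 0.212), and Nrbf2, a subunit of the lipid kinase complex, by 0.69 (SE 0.0683).

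In the lysosomal lists nearly all calls were upward, while most genes did not pass. Of 29 hydrolases, 12 rose and 1 fell, with a median of 0.17. Gla, alpha-galactosidase, rose by 0.86 (SE 0.144), the sialidase Neu1 by 0.43 (SE 0.0534), the sulfatase Arsb by 0.35 (SE 0.0682) and the acid lipase Lipa by 0.35 (SE 0.0704). Acp2, an acid phosphatase, was the 1 that fell, by -0.23 (SE 0.0561), and is named here because it was alone. Of 17 genes of the lysosomal membrane and lipid export, 7 rose and 0 fell, with a median of 0.16. Calls were 44.8% of the hydrolases and 41.2% of the membrane genes, beside 34.1% of genes with a group mean of 4 or more. Pip4p1, a lipid phosphatase, rose by 0.62 (SE 0.0893) and the cystine exporter Ctns by 0.55 (SE 0.154), followed by the amino acid transporter Slc38a9 at 0.34 (SE 0.0712) and the sialic acid exporter Slc17a5 at 0.29 (SE 0.0606).

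Of 16 subunits of the V-ATPase, the proton pump of the lysosome, only Atp6v1a rose (0.32, SE 0.0659) and 0 fell, and the blocked fit called 7 higher and 0 lower. The median was 0.13. Of 34 genes of nutrient sensing by mTORC1 and AMPK, 5 rose and 8 fell, with a median of 0.04, and the blocked fit called 11 and 9. Unblocked calls were 6.25% of the V-ATPase list and 38.2% of the nutrient sensing list. The share among genes with a group mean of 4 or more was 34.1%. Sesn2, the third sestrin, fell by 1.02 (SE 0.109, log2 difference -1.02), opposite to Sesn3. The AMPK subunits Prkab1 and Prkab2 fell by 0.73 (SE 0.0530) and 0.48 (SE 0.143), and Fnip1, a partner of folliculin in nutrient sensing, rose by 0.53 (SE 0.0966). With the block the counts were 15 and 9 for the other machinery, 18 and 1 for the hydrolases and 11 and 0 for the membrane genes. All blocked counts of the lists stand beside 24.6% of all genes called by that fit. Among genes with a group mean of 4 or more its share was 50.8%.

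**Figure D5:**
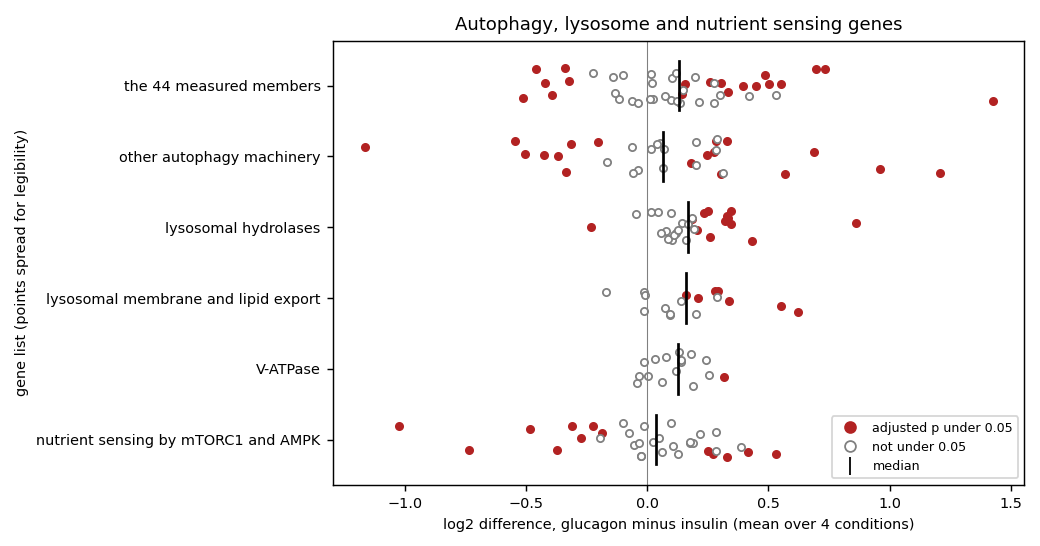
Averaged glucagon minus insulin differences (log2) of the 44 genes and of 5 further pathway lists, 1 point per gene, filled where the adjusted p was under 0.05, with a bar at each median. Medians run from 0.04 for nutrient sensing to 0.17 for the hydrolases, with 0.13 for the 44 genes, and the widest spread is that of the other autophagy machinery, from -1.17 to 1.21.

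The cells were checked against markers of liver cell types. All 9 hepatocyte markers had a group mean of 4 or more, and 4 of them rose under glucagon, where 14.9% of genes at that level did. Of the macrophage markers 8 of 10 had no group mean of 4, as had 7 of 8 stellate cell markers, 3 of 7 endothelial, 3 of 5 cholangiocyte and 6 of 6 lymphocyte markers. Summed macrophage marker levels ranged from 8.23 to 10.1 under insulin and from 8.75 to 10.2 under glucagon (log2), and 0 of the 10 were called by limma, with 0 at an unadjusted p under 0.05. Among the cholangiocyte markers Sox9, a transcription factor, fell by 1.20 (log2 difference -1.20, SE 0.221, adjusted p = 0.000456 by limma), and the summed level ranged from 7.68 to 8.73 under insulin and from 6.58 to 7.85 under glucagon. Stellate cell, endothelial and lymphocyte markers had 0 calls by limma, with 0, 0 and 2 at an unadjusted p under 0.05. The blocked fit called 1 macrophage, 2 stellate cell and 1 endothelial marker higher and 2 cholangiocyte markers lower. The part of other cell types in the differences above was not tested.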

How the data were processed

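Values are log2 expression values as the authors deposited them, 24 arrays and 41345 probe sets with 0 missing values. GeneSpring software was used, per the labels' series text, and how they were normalized or background-corrected is not given in the sources used here. The log2 scale was read from the values, 1.46 to 13.5, and array medians lay between 3.21 and 3.28. The number of arrays limits the precision. Gene symbols came from the platform annotation: 23521 had 1 symbol, 1814 several and 16010 none, and 23328 of the first matched the reference table by gene number. Keeping the brightest probe set of each gene gave 22180 genes. Replicates of a group correlated at 0.986 to 0.994 and shared at most 4 identical values.

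Differences were fitted with limma 3.58.1 in R 4.3.3, with 1 mean for each of 8 groups, all arrays together and 16 residual degrees of freedom (14 with the experiment block). Averaged differences treat pairs within an experiment as independent. The block was justified because, in 84 of 84 same-experiment pairs, deviations from group means correlated above 0.1 (0.374 to 0.698, median 0.474), and the labels number arrays by experiment. Tested on simulated data with known changes for the averaged hormone difference over 22180 genes, the fit recovered 40% of genes changed by 0.3 (log2), 72% by 0.5, 98% by 1 and 100% by 1.5, with 7 false among 162 calls. The simulated arrays shared no effect of experiment, and only 50 genes were changed at each size. These rates therefore need not carry over to the deposited arrays. Figures used matplotlib 3.10.9.

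Members and lists were chosen with earlier results of these data known. Array ranges are given for genes past the threshold in a hormone difference (at most 20), for Ulk1, Atg7 and Tfeb, and for the 3 of smallest unadjusted p with drug and with hairpin. At most 4 called genes of largest difference are named per further list. A comparison of ATG8 protein sequences was not made. Alternatives were array centring, quantile normalization, a filter on low levels, the mean over probe sets, other variance settings, the block, 1 difference per experiment, and leaving out an experiment or array.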

Additional observations from a re-analysis of the deposited data

How the results depend on the processing

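With the experiment as a replicate block, the number of the 44 genes called was 32 instead of 19 for the averaged hormone difference, 1 instead of 0 for the hairpin, and 12, 11, 17 and 13 within the combinations shlacZ DMSO, shlacZ GW4064, shFOXA2 DMSO and shFOXA2 GW4064. Fitting only the arrays of the comparison gave 3, 1, 2 and 1 in these combinations, and a variance prior that follows the level gave 3 and 2 in the shlacZ combinations. Calls among all genes changed as well. In the 4 combinations they were 1039, 686, 1062 and 775 in the main fit and 2481, 1865, 2500 and 2027 with the block. They were 541, 232, 409 and 316 with only the arrays of the comparison, and 911 and 582 in the shlacZ combinations with that variance prior. Leaving out an experiment or an array gave 12 to 24 genes for the averaged hormone difference, and 2 to 8, 2 to 4, 0 to 8 and 1 to 6 within the combinations. Without experiments 1, 2 and 3 in turn, the averaged count was 12, 14 and 24. Among all genes it was 2018, 2216 and 3610, beside 3600 with all arrays. Fewer arrays enter those fits, and the cause of these changes was not tested. With 1 difference per experiment 23 of the 44 passed, beside 3603 of all genes, and Lamp2 and Ctsd did not (adjusted p = 0.106 and 0.114 by limma). Atg7, which passed in no fit, changed sign to -0.012 with array centring. Leaving out an experiment or an array moved it between -0.015 and 0.041, and below 0 without experiment 1, without the shFOXA2 insulin DMSO array of experiment 1 and without the shFOXA2 glucagon DMSO array of experiment 2. Counts for GW4064 and for the interactions were 0 under every alternative run. Centring moved the median of all genes from 0.0051 to -0.017.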
